A study of Homo sapiens with 10 samples.

Results

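The regions described here are 2816 distal sites of a deposited region list named RCOR2-low, in Kelly neuroblastoma cells, at which chromatin immunoprecipitation followed by sequencing (ChIP-seq) gave no peak of RCOR2 and none of LSD1. They were chosen by position and by measured peaks. A region was taken when it lay farther than 2 kb from both ends of every RefSeq protein-coding gene (GRCh38) and overlapped no peak of either induced RCOR2 library and no peak of either LSD1 library, by 1 bp or more. They make up 11.4% of the 24637 regions of the RCOR2-low list and 14.6% of its 19281 distal regions. The series holds 31310 listed regions, of which 6673 are in the RCOR2-high list. The rest of the distal RCOR2-low regions served for comparison: 7662 with LSD1 but no RCOR2 (LSD1-only), 4373 with RCOR2 but no LSD1 (RCOR2-only) and 4430 with both proteins. The sources used here do not say how the RCOR2-low list was made.

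All libraries came from Kelly, an established adrenergic neuroblastoma line with amplified MYCN, in 5 groups of 2 libraries, each labelled 48 h. RCOR1 and RCOR3 were precipitated with their own antibodies from non-treated cells. RCOR2 carried a 3xF (triple FLAG) tag and was precipitated with anti-FLAG from cells given 2 µg/mL doxycycline, and the same antibody on non-treated cells of that line gave the uninduced control. LSD1 was precipitated with its own antibody from non-treated cells of another Kelly derivative, which carries a doxycycline-switched shRNA against RUNX1T1. The absence of RCOR2 and LSD1 peaks therefore refers to a tagged transgene product and to a derivative line, and absence means below the authors' peak threshold, since no read signal was used. No RNA was measured in these libraries.

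RCOR1, RCOR2 and RCOR3 are the CoREST scaffold proteins. They hold the histone demethylase LSD1 (gene KDM1A), which removes methyl groups from lysine 4 of histone H3, together with the deacetylases HDAC1 and HDAC2, and they carry the complex to nucleosomes. DNA-binding repressors such as REST, GFI1 and SNAI1 recruit it, and the complex is best known for keeping neuronal genes silent outside neurons. Adrenergic neuroblastoma cells are driven by a small circuit of transcription factors that includes HAND2 and GATA3.

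Sequence was read from RefSeq windows of 250 bases before to 50 bases after annotated transcript starts (GRCh38.p14). The regions touched 51 such windows, and 4 are shown. Capitals mark, on either strand, the letters GATAA (GATA factors), the E-box form CAGATG, the AP-1 letters TGANTCA and the homeodomain core TAATTA. The first 3 belong to the regions with peaks in the most RCOR1 and RCOR3 libraries, where HK1 was tied with TRIM62 at 3 libraries and had the higher RCOR1 replicate 1 fold (9.39 against 4.52). The last is LMO3, the adrenergic regulator with such a window, chosen after its values were seen. For the protein-coding genes HK1 and LMO3 only the 250 bases before the start are given. The first 3 stretches lie wholly inside their regions, but only 116 of the 250 bases shown for LMO3 lie in its region. NCAM1-AS1 is antisense to the neural cell adhesion gene NCAM1 (chr11:113273852-113274151, minus strand), LOC124902699 is an uncharacterised noncoding RNA (chr11:68763497-68763796, plus strand), the HK1 start lies inside the hexokinase 1 gene (chr10:69334364-69334613, plus strand) and the LMO3 start inside LMO3 (chr12:16606801-16607050, minus strand).
NCAM1-AS1: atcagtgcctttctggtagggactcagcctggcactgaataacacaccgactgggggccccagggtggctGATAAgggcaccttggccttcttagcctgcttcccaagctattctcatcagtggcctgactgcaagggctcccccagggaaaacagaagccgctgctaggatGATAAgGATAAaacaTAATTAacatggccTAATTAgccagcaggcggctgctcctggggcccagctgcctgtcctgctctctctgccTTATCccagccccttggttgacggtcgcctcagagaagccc
LOC124902699: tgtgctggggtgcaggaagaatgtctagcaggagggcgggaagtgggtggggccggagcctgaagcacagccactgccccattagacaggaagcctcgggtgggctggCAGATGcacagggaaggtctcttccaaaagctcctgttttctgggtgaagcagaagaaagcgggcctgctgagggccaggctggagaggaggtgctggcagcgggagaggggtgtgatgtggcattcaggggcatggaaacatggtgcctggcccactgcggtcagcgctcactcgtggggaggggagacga
HK1: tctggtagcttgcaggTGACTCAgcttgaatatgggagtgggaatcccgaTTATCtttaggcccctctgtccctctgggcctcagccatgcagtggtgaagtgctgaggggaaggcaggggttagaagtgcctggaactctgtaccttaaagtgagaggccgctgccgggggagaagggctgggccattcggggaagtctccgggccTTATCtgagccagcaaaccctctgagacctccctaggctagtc
LMO3: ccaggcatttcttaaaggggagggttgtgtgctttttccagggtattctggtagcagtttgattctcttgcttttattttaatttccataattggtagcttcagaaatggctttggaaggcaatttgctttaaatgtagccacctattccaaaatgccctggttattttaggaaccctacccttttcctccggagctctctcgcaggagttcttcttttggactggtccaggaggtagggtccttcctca
The NCAM1-AS1 window held 4 matches to GATAA and 2 to TAATTA. The HK1 stretch held 1 match to TGANTCA and 2 to GATAA. The window of LOC124902699 held 1 CAGATG, and the LMO3 stretch held none of the 4.

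Over the 51 windows, TGANTCA was present in 27.5%, against 7.68% of all 34961 RefSeq windows. GATAA was present in 35.3% against 22.7%, CAGATG in 25.5% against 14.7%, TAATTA in 9.80% against 4.85%, and TGTGGT, the RUNX letters, in 21.6% against 13.1%. Windows at LSD1-only regions gave 21.5% for TGANTCA and 45.2% for GATAA (n = 93). Windows at RCOR2-only regions gave 5.48% and 13.8% (n = 529), and those at double-positive regions 12.3% and 28.6%. For CAGATG the LSD1-only, RCOR2-only and double-positive (n = 227) windows gave 24.7%, 14.7% and 17.2%. In the same order, the share was 18.3%, 2.84% and 8.37% for TAATTA, which was in 5 of the 51 windows. It was 18.3%, 12.5% and 18.5% for the RUNX letters. Shares above those of all windows were thus also found at LSD1-only windows for each of these letter runs. CACGTG, the MYC and MAX E-box, was present in 3.92% of the 51 windows against 7.27% of all. The general E-box CANNTG, which covers both E-box forms above, was present in 78.4% against 68.7%. The REST half-site letters TTCAGCACC were found in 0 of the 51 windows and in 0.378% of all. Base composition differed too. The median GC content was 51.3% in the 51 windows, 46.7% in LSD1-only, 63.0% in RCOR2-only, 52.7% in double-positive and 58.7% in all windows. The part of base composition in these shares was not tested. Letters were counted over whole windows, and some regions cover only a small part of theirs, so a match can lie outside the region. Some windows overlap each other, both strands were searched, and a match is a run of letters and not a measured binding site.

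Transcript starts were rare in the set. A window was touched by 46 regions, or 1.63% (95% Wilson interval 1.23 to 2.17%), against 3.82% of all distal RCOR2-low regions, 1.10% of LSD1-only, 9.72% of RCOR2-only and 4.11% of double-positive regions. Their 51 windows belong to 49 genes, 33 of them long noncoding RNA genes and 16 protein-coding genes with a start inside the gene, among them TRIM62, CDC25B (a phosphatase of mitotic entry), CREB5 and PIK3R3. No region overlapped a RefSeq miRNA hairpin. At the 46 regions RCOR3 peaks were present in 15.2% for both replicates, against 10.8% and 10.5% of the other 2770 regions.

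What the regions did carry was RCOR1, in a single library. A peak of RCOR1 replicate 1 lay in 2775 regions (98.5%) and a peak of replicate 2 in 285 (10.1%). Both were present in 244 regions (8.66%), replicate 2 alone in 41, and no region lacked RCOR1. The background over all 19281 distal regions was 92.6% for replicate 1 and 31.1% for replicate 2. Of the 2816 regions, 2720 (96.6%) had the exact start and end of an RCOR1 replicate 1 peak and 46 those of a replicate 2 peak, so the set was in effect selected on RCOR1 replicate 1, whose values are given as a description. The results below rest on that library, which had 49250 peaks against 18297 in replicate 2.

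RCOR1 peaks at these sites were among the weaker ones. Fold enrichment, the authors' ratio of signal over local background per peak, had a median of 4.70 in replicate 1 (quartiles 3.98 and 5.67, highest 16.8). The median was 6.01 at LSD1-only, 5.68 at RCOR2-only and 8.74 at double-positive regions. In replicate 2 the medians were closer, at 5.20, 5.33, 5.25 and 6.30. On a percentile rank within each library, where 100 is the strongest peak, the peaks at the regions had medians of 42.04 and 42.8 in replicates 1 and 2, and those at LSD1-only regions 65.9 and 51.7. Regions without a peak have no rank, so the replicate 2 medians cover 285 of the 2816 regions and 1949 of the 7662 LSD1-only regions. The mean difference of the medians was −16.4 rank points (42.4 ± 0.508 against 58.8 ± 10.0, SD, n = 2 libraries), with the peaks at the regions lower in both libraries. The boxes of RCOR1 strength show that the quartile ranges overlapped between classes, except that in replicate 1 the upper quartile of the regions (5.67) lay below the lower quartile of double-positive regions (6.28). The regions were also narrow, with a median width of 296 bp against 415, 573 and 755 bp in the LSD1-only, RCOR2-only and double-positive classes.

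**Figure D1:**
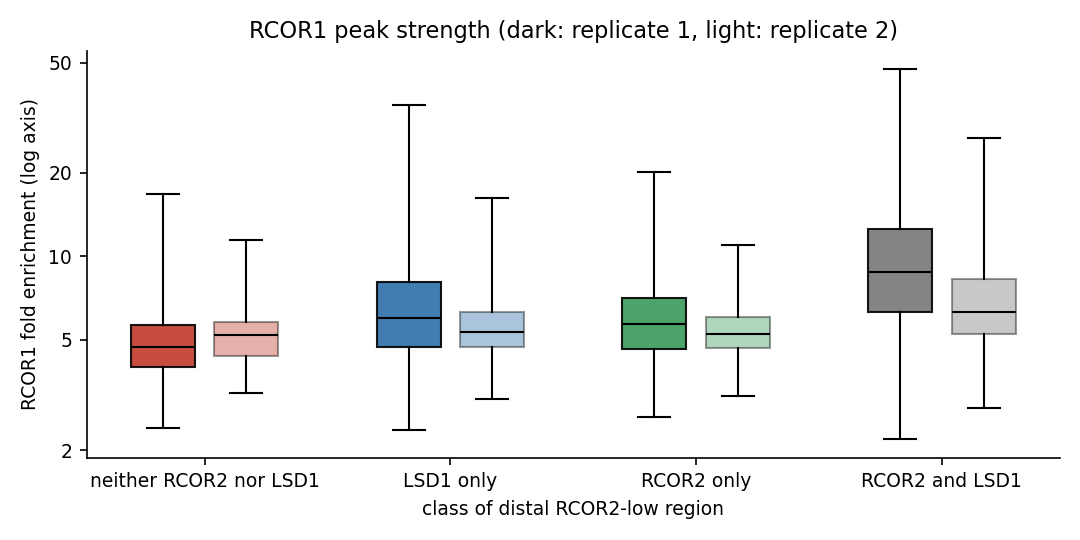
RCOR1 fold enrichment (vertical, log axis) of the peaks at distal RCOR2-low regions, by class; boxes give the quartiles, the line the median and the whiskers the lowest and highest peak, dark for replicate 1 and light for replicate 2. The medians of replicate 1 run from 4.70 at regions with neither protein to 8.74 at regions with both, while those of replicate 2 lie between 5.20 and 6.30.

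The overlap terms of the rule did not use RCOR3, the sister scaffold. Whether RCOR3 had a part in making the RCOR2-low list is not known. Among RCOR1 replicate 1 peaks that met the other terms, listed ones had RCOR3 more often than unlisted ones. The shares were 10.9% and 10.4% against 2.69% and 4.73% in the 2 RCOR3 libraries. A peak of RCOR3 replicate 1 lay in 307 regions, or 10.9% (9.80 to 12.1%), and a peak of replicate 2 in 298, or 10.6% (9.50 to 11.8%). The background over all distal regions was 35.4% and 29.9%. LSD1-only regions had RCOR3 at 35.8% and 26.2%, RCOR2-only regions at 21.2% and 19.5%, and double-positive regions at 64.3% and 58.8%. The regions with neither protein were thus lowest in both RCOR3 libraries, and the intervals did not overlap those of any other class.

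The mean RCOR3 share was 10.7% ± 0.226 (SD, n = 2 libraries) against 31.0% ± 6.80 at LSD1-only regions, a difference of −20.3 percentage points, seen in both libraries at −24.9 (95% interval −26.5 to −23.3) and −15.6 (−17.1 to −14.1). Against RCOR2-only regions, at 20.4% ± 1.26, it was −9.61 points, with −10.3 (−12.0 to −8.65) and −8.88 (−10.5 to −7.23) in the libraries. Both comparisons had a two-sided exact sign-flip permutation p = 0.5, the smallest that 2 libraries can give, so they cannot pass a threshold of 0.05. With 2 libraries this p shows only that both differed in the same direction, and it does not measure the spread between them. Intervals cover counting error over regions only. With the regions held to the 244 that had both RCOR1 peaks, RCOR3 was present in a mean of 43.9%, which turned both differences (12.8 and 23.5 points) when the other classes were left whole. With all classes held to regions with both RCOR1 peaks, the differences were −24.9 points against LSD1-only and −4.36 points against RCOR2-only regions. The last had a two-sided exact sign-flip permutation p = 1, since the regions were lower in RCOR3 replicate 1 (39.3% against 49.8%) and higher in replicate 2 (48.4% against 46.7%). The call that the regions are lowest in RCOR3 thus holds for the whole set and not against RCOR2-only regions with both RCOR1 peaks.

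**Figure D2:**
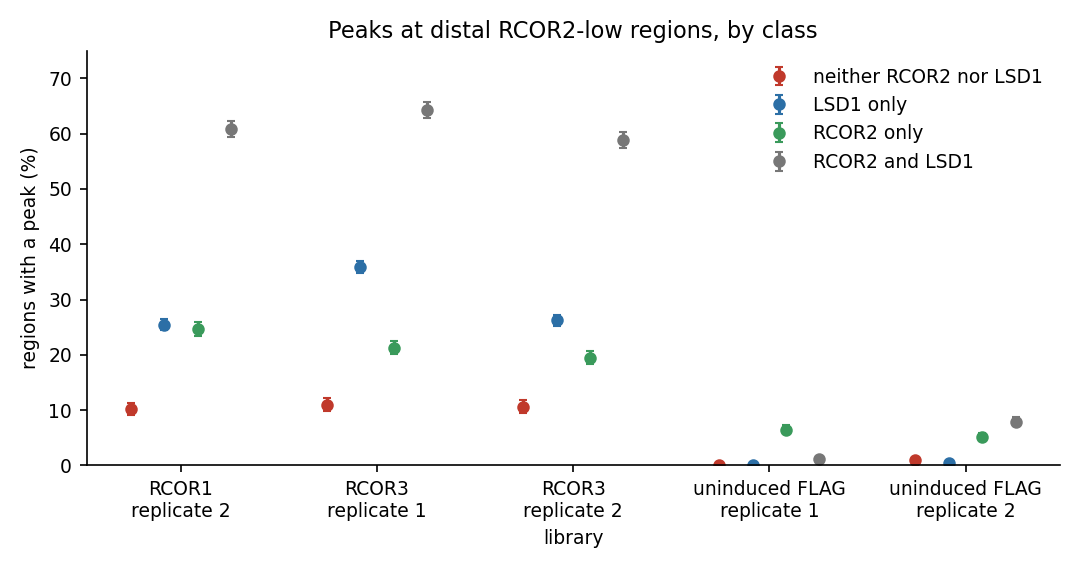
Share of distal RCOR2-low regions with a peak (vertical, %) in the RCOR1 replicate 2, RCOR3 and uninduced FLAG libraries, for 4 classes of region; points are shares and bars 95% Wilson intervals. Regions with neither RCOR2 nor LSD1 sit at 10.1 to 10.9% in the RCOR1 and RCOR3 libraries, below the other classes.

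The RCOR3 share was higher where the RCOR1 peak was stronger. All RCOR1 replicate 1 peaks were put into 4 bins of 25% by fold enrichment. From the weakest to the strongest bin, the share was 2.71%, 4.79%, 14.2% and 45.2% of the regions for RCOR3 replicate 1, and 3.89%, 6.39%, 14.1% and 30.7% for replicate 2. The bins held 848, 814, 843 and 270 regions. Only 9.73% of the regions with an RCOR1 replicate 1 peak were in the strongest bin, against 38.0% of LSD1-only regions. In the 3 weaker bins the RCOR3 shares of the classes lay closer than over the whole set, with 3.59% and 5.48% of LSD1-only regions in the weakest one. In the strongest bin LSD1-only regions (72.2% and 49.1%) and RCOR2-only regions (59.2% and 44.8%) lay farther from the regions with neither protein. Double-positive regions had 88.0% and 79.6% there. Their gap to the regions with neither protein was narrower than over the whole set in RCOR3 replicate 1. With the bins weighted by the regions' own numbers, a comparison added after the data were seen, the difference was −4.95 points to LSD1-only and −6.12 points to RCOR2-only regions (two-sided exact sign-flip permutation p = 0.5 for both). The bins do not match strength fully, since the strongest one ran from a fold of 6.71 to 16.8 at the regions and to 35.2 at LSD1-only regions.

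**Figure D3:**
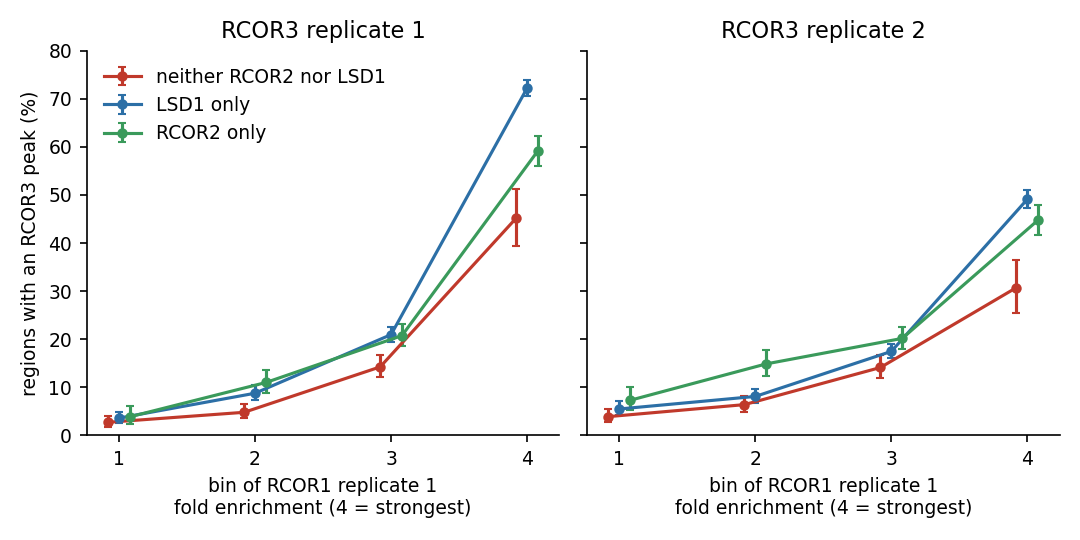
Share of regions with an RCOR3 peak (vertical, %) by bin of RCOR1 replicate 1 fold enrichment (horizontal, 4 = strongest), for RCOR3 replicate 1 (left) and replicate 2 (right); bars are 95% Wilson intervals. The red points, regions with neither RCOR2 nor LSD1, climb from 2.71% to 45.2% and from 3.89% to 30.7%.

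Peaks of the second RCOR1 library and of RCOR3 often coincided. Among the 285 regions with an RCOR1 replicate 2 peak, RCOR3 was present in 34.7% and 45.3%, against 8.22% and 6.68% of the 2531 regions without one. In all, 507 regions (18.0%) had RCOR3 in at least 1 library, 98 (3.48%) in both and 409 in exactly 1. The RCOR3 replicates shared fewer sites here than elsewhere: 31.9% of the regions with a replicate 1 peak also had a replicate 2 peak, against 52.1% at LSD1-only, 46.6% at RCOR2-only and 80.5% at double-positive regions. Peaks of both RCOR1 and both RCOR3 libraries were found at 56 regions (1.99%), and 2181 (77.5%) had a peak of RCOR1 replicate 1 and of no other library.

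Uninduced FLAG peaks were few. They were found at 1 region in replicate 1 (0.0355%) and at 26 in replicate 2 (0.923%), against a background of 1.74% and 3.26% over distal regions. LSD1-only regions, which also lack RCOR2, had still fewer, at 0% and 0.431%. The mean at the regions with neither protein, 0.479% ± 0.628 (SD, n = 2), was 10.3 percentage points below RCOR3. RCOR2-only regions had 6.47% and 5.08%, a difference of −5.29 points. Both differences are a description with no test, because the same antibody made the RCOR2 libraries that chose the regions. The uninduced shares lay below those of RCOR3 at the regions in every library.

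The strongest regions were ranked by the lower of their 2 RCOR1 percentile ranks. First was a 622 bp region inside NCAM1, 4.2 kb from its end (chr11:113273614-113274235), with RCOR1 folds of 12.7 and 9.98 and RCOR3 folds of 4.94 and 4.76. It covers the NCAM1-AS1 window printed above, and all 4 RCOR1 and RCOR3 libraries had a peak there. A region inside EBF3, a transcription factor of neuronal differentiation (chr10:129960962-129961761), had RCOR1 folds of 13.1 and 6.79 and an RCOR3 peak in replicate 1 only, at 3.76. The other strong regions lay nearest to RPL29, HEPHL1, PTPN2, ZC3H15, MYH7B, TRIM16, CCND1 (129.2 kb away) and MRPL1, with RCOR1 folds of 7.16 to 9.73 in replicate 1 and 6.83 to 9.45 in replicate 2. These 10 regions all had RCOR3 in at least 1 library.

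Regions with all 4 RCOR1 and RCOR3 peaks were ranked by the lowest of their 4 ranks. The region nearest to HEPHL1, a ferroxidase gene 74.8 kb away (chr11:93945878-93946549), led with RCOR1 folds of 8.39 and 8.93 and RCOR3 folds of 6.14 and 8.86. A region 34.0 kb from PKDCC, a secreted tyrosine kinase gene (chr2:42013521-42014062), had RCOR1 folds of 7.82 and 6.28 and RCOR3 folds of 6.22 and 10.3. The third, 132.5 kb from ACKR3, a chemokine scavenger receptor gene (chr2:236714814-236715399), had RCOR1 folds of 6.71 and 6.30 and RCOR3 folds of 6.78 and 5.97. The fourth, 13.9 kb from SLC16A1, which encodes the lactate transporter MCT1 (chr1:112897624-112897931), had RCOR1 folds of 6.46 and 11.4 and RCOR3 folds of 5.06 and 13.4, higher in replicate 2 for both proteins. The next were nearest to SLCO4A1, ADAMTS13, TAFA5 (400 kb), PTPN20, TRIQK and DLL1, a Notch ligand (192.1 kb). RCOR1 replicate 1 folds in these 6 ran from 5.82 to 8.75. The mesenchymal-state gene COL1A1, a collagen chain, also had all 4 peaks at its region, 8.7 kb away (chr17:50210339-50210998), with RCOR1 folds of 10.7 and 4.86 and RCOR3 folds of 5.76 and 7.73.

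The regions lay at distances between those of the LSD1-only and RCOR2-only classes. The median distance to the nearest end of a protein-coding gene was 25.8 kb, against 61.4 kb for LSD1-only, 16.98 kb for RCOR2-only and 43.6 kb for double-positive regions. Beyond 100 kb lay 17.5% of the regions, 36.5% of LSD1-only and 10.6% of RCOR2-only regions. Inside a protein-coding gene lay 1529 regions (54.3%), in a noncoding gene only 341 (12.1%) and in no gene 946 (33.6%). Exons and introns were not told apart, because the gene table gives no exons. The share of distal RCOR2-low regions with neither protein ran from 8.89% on chromosome 4 to 24.8% on chromosome 22, and 2 regions lay within 2 Mb of MYCN.

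The regions often had RCOR2 or LSD1 nearby. The nearest RCOR2 peak was at a median of 2.65 kb, within 1 kb for 32.1% and within 10 kb for 75% of the regions. LSD1-only regions, which also lack RCOR2, had an RCOR2 peak within 1 kb in 8.01% and within 10 kb in 42.7%. The nearest LSD1 peak was at a median of 10.6 kb, within 1 kb for 18.5% and within 10 kb for 48.5%, against 7.52% and 32.1% of RCOR2-only regions. An LSD1-only region lay within 10 kb of 23.05% of the regions and of 10.9% of RCOR2-only regions, and an RCOR2-only region within 10 kb of 27.8% of the regions and of 6.00% of LSD1-only regions. With no RCOR2 or LSD1 peak allowed within 1 kb, 1628 regions were left, and their RCOR3 share of 10.3% stayed 20.3 points below LSD1-only regions.

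The values near the limits of the rule are given as a description. Regions 2 to 3 kb from a gene end (n = 131) had RCOR3 shares of 11.5% and 6.11%, and otherwise equal regions at 1 to 2 kb (n = 197), just outside the rule, 10.2% for both replicates. Regions with an RCOR2 or LSD1 peak within 50 bp (n = 134) had 4.48% and 13.4%, and regions left out for an overlap of under 50 bp (n = 76) 5.26% and 13.2%.

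Most of the regions had no other region of the set nearby, which also held within the other classes. Joined within 10 kb, 650 (23.1%) fell into 289 clusters and 2166 had no other within that distance. A neighbour of the same class lay within 10 kb of 27.8% of LSD1-only, 34.8% of RCOR2-only and 22.1% of double-positive regions, and the classes differ in size. The largest cluster held 6 regions within 2.45 kb of PSTPIP1, a cytoskeletal adaptor gene (chr15:76996762-76999215), with no other distal RCOR2-low region among them and RCOR1 replicate 1 folds of 3.25 to 6.75. A second set of 6 lay over 21.0 kb in ECE1, with folds of 3.40 to 11.1 and 4 regions of other classes between them. The next clusters lay in IFFO2 and CCDC33, with 5 regions each, and in the netrin receptor gene UNC5A, with 4 regions in 3.21 kb and folds of 3.28 to 4.03. Of these 26 regions 1 had an RCOR1 replicate 2 peak and 3 an RCOR3 peak.

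By nearest gene end within 100 kb, 2324 regions were assigned to 1571 of 19974 protein-coding genes (7.87%). A single region was nearest to 1153 genes, 40 genes had 5 or more, and 388 had no other distal RCOR2-low region. The genes with a region were long, with a median of 53.6 kb against 24.2 kb for all genes. TP53I11, a p53-induced gene, had the most, with 10 regions beside 7 LSD1-only and 5 RCOR2-only ones, and 6 of the 10 lay inside its neighbour TSPAN18. ECE1, the endothelin-converting enzyme gene, ZMIZ1, a transcriptional coregulator of the PIAS-like family, and MED27, a Mediator subunit, had 9 each. OLFM1 (olfactomedin 1), FLRT1, IFFO2 and LINGO1, a myelination regulator, had 7 each. FLRT1 and IFFO2 had no LSD1-only region. One of the OLFM1 regions, 51.7 kb away (chr9:135023235-135023814), had an RCOR1 fold of 13.1 and RCOR3 folds of 5.17 and 5.20 with no RCOR1 replicate 2 peak. The nearest gene is a position and not a measured target.

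**Figure D4:**
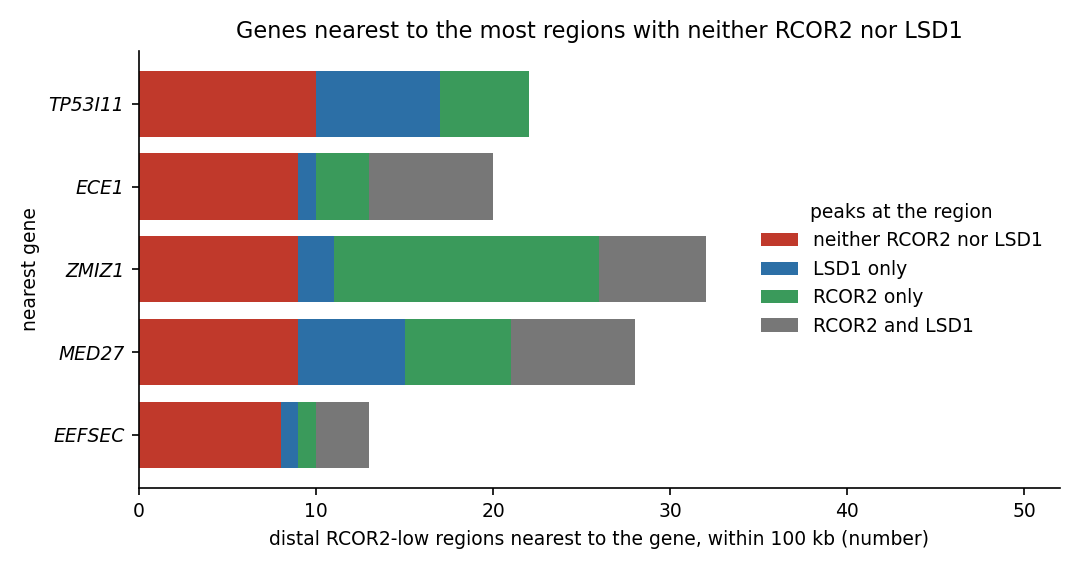
Number of distal RCOR2-low regions (horizontal) nearest to each of the 5 genes with the most regions lacking both RCOR2 and LSD1 (red), stacked with LSD1-only (blue), RCOR2-only (green) and double-positive regions (grey). TP53I11 has 10 red regions of 22 and EEFSEC has 8 of 13.

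EEFSEC, the elongation factor for selenocysteine, had 8 of its 13 distal regions in the set, and its neighbour GATA2 had 4 of 6. GATA2 is a zinc finger factor of the sympathetic lineage. The 8 regions at EEFSEC had RCOR1 replicate 1 folds of 2.97 to 6.50 and no peak of RCOR1 replicate 2 or RCOR3. The 4 at GATA2 had 3.97, 5.12, 3.63 and 3.95 from left to right, and the second (chr3:128474664-128475118) carried an RCOR3 replicate 2 peak at 4.40. None of the 12 had a replicate 2 RCOR1 peak.

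Of the 26 adrenergic regulators, 9 (34.6%) were nearest to a region, against 7.87% of all genes. Among them were GATA2 with 4 regions, HAND1 with 3, ZNF536 with 2, and KLF13, SATB1, LMO1, TBX3 and LMO3 with 1 each. HAND1 encodes a basic helix-loop-helix factor of the sympathetic lineage, and LMO1 and LMO3 are LIM-only cofactors. The regions at HAND1 had RCOR1 replicate 1 folds of 3.40, 4.70 and 4.19, with no peak of RCOR1 replicate 2 or of either RCOR3 library. HAND1 had 11 double-positive regions beside its 3. Of the 16 regions at this list, RCOR3 was seen at GATA2 (replicate 2) and at KLF13 (both replicates), and RCOR1 replicate 2 at LMO1. Since 20 of these 26 genes (76.9%) had a distal RCOR2-low region of any class, against 28.3% of all genes, the share of their distal regions that lacked both proteins was 16.2%, next to 16.3% for all genes.

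Of 23 genes of the LSD1-CoREST complex and its recruiters, 6 (26.1%) were nearest to a region, against 7.87% of all genes, and 3 held one in their body. A distal RCOR2-low region of any class was nearest to 47.8% of the list, against 28.3% of all genes. Of those regions 22.95% lacked both proteins, against 16.3% for all genes. GSE1, a component of LSD1 complexes, had 6 regions with RCOR1 folds of 3.23 to 5.67 and no other peak, beside 15 RCOR2-only regions. RUNX1T1, a corepressor of the ETO family, and SNAI1, a repressor that recruits LSD1, had 2 each, and CBFA2T2 and ZNF217 had 1 each. RUNX1T1 is also the gene the shRNA of the LSD1 line is directed against. One of its regions (chr8:92094913-92095432) had an RCOR1 fold of 5.96 and an RCOR3 replicate 2 fold of 5.22.

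By nearest gene end, axon guidance and synaptic adhesion genes differed in their counts, which have no test. Of 37 axon guidance genes 13 (35.1%) had a region, against 7.87% of all genes. The semaphorin receptor PLXNA1 led with 6, UNC5A had 5, and EPHB2 and PLXNA4 had 4 each. A distal region of any class was nearest to 83.8% of these genes, against 28.3% of all genes. The 37 regions with neither protein made up 20.3% of those at the list, against 16.3% for all genes. The 6 regions at PLXNA1 had RCOR1 folds of 2.94 to 6.51, and 1 of them had RCOR3, in replicate 2. Of 35 synaptic adhesion genes 2 (5.71%) had a region, NCAM1 with 2 and PTPRS with 1, though 21 of them had a distal RCOR2-low region, so that 3.61% of the regions at this list lacked both proteins. By gene body the counts were 11 of 37 axon guidance and 7 of 35 synaptic adhesion genes, against 1016 of 19974 for all genes. The low count of synaptic adhesion genes thus depended on assigning regions by gene end. Of 27 potassium channel genes 5 (18.5%) had a region, against 7.87% of all genes. A distal region of any class was nearest to 55.6% of these genes, against 28.3% of all genes. Of those regions 18.2% lacked both proteins, against 16.3% for all genes. KCNN3, a calcium-activated channel, had 6 regions with neither protein, with folds of 3.36 to 6.46. One KCNN3 region (chr1:154750685-154751571) had RCOR3 folds of 4.12 and 5.82, and another had the RCOR1 replicate 2 peak, at 4.20.

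Of 23 receptor tyrosine kinases of the sympathetic lineage 6 (26.1%) had a region, against 7.87% of all genes. A distal region of any class was nearest to 73.9% of them, against 28.3% of all genes. Of those regions 13.1% lacked both proteins, below the 16.3% of all genes. At RET, the receptor for GDNF-family ligands, a region 96.8 kb away (chr10:42979051-42980246) had all 4 peaks, with RCOR1 folds of 5.17 and 5.08 and RCOR3 folds of 5.55 and 5.13. FGFR2 also had 2 regions, PDGFRB had 1 and ALK, a neuroblastoma driver, had 1 inside the gene with an RCOR1 fold of 4.93. Of 20 noradrenergic genes 3 (15%) had a region and 60% had a distal region of any class, against 7.87% and 28.3% of all genes. Of their distal regions 11.1% lacked both proteins, against 16.3% for all genes. SLC18A2, the vesicular monoamine transporter, had 2 at folds of 4.03 and 6.04, and SLC6A2 (the noradrenaline transporter) and DBH (dopamine beta-hydroxylase) had 1 each. Of 30 mesenchymal-state genes 6 (20%, against 7.87% of all genes) had 1 region each, among them COL1A1, IRF1, IRF2 and YAP1. That count was 3 with a gene end within 50 kb and 0 by gene body. A distal region of any class was nearest to 40% of these genes, against 28.3% of all genes. Of those 24 regions 25% lacked both proteins, against 16.3% for all genes.

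The other lists gave 5 of 40 cytosolic ribosomal protein genes, 3 of 22 immediate early and AP-1 genes (ATF3, KLF6 and FOSB), 2 of 20 p53 targets (BTG2 and TNFRSF10B), 2 of 15 Schwann and glial genes (PMP22 and FOXD3) and 1 of 39 HOX genes. In that order these were 12.5%, 13.6%, 10%, 13.3% and 2.56%, against 7.87% of all genes. A distal region of any class was nearest to 27.5%, 54.5%, 50%, 33.3% and 15.4% of the lists, against 28.3% of all genes. Of those regions 22.7%, 12.9%, 15%, 12.5% and 12.5% lacked both proteins, against 16.3% for all genes. Lists of other tissues gave 3 of 22 T and B lymphocyte genes (PAX5, BLK and CD4), 1 of 23 keratinocyte genes (KRT16) and 0 of 25 liver genes. In that order these were 13.6%, 4.35% and 0%. A distal region of any class was nearest to 22.7%, 17.4% and 16% of these lists, with 18, 5 and 12 such regions. Of those regions 16.7%, 20% and 0% lacked both proteins. With a gene end within 50 kb and by gene body, the count of ribosomal protein genes was 3 and 1. By gene body it was 0 for immediate early genes, p53 targets and keratinocyte genes, 1 for Schwann and glial genes and 1 for lymphocyte genes, while 1016 of all genes held a region in their body. Lists differ in gene length, from a median of 3.79 kb for HOX genes to 339 kb for synaptic adhesion genes, and its part in the shares was not tested. The counts have no test of their own.

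**Figure D5:**
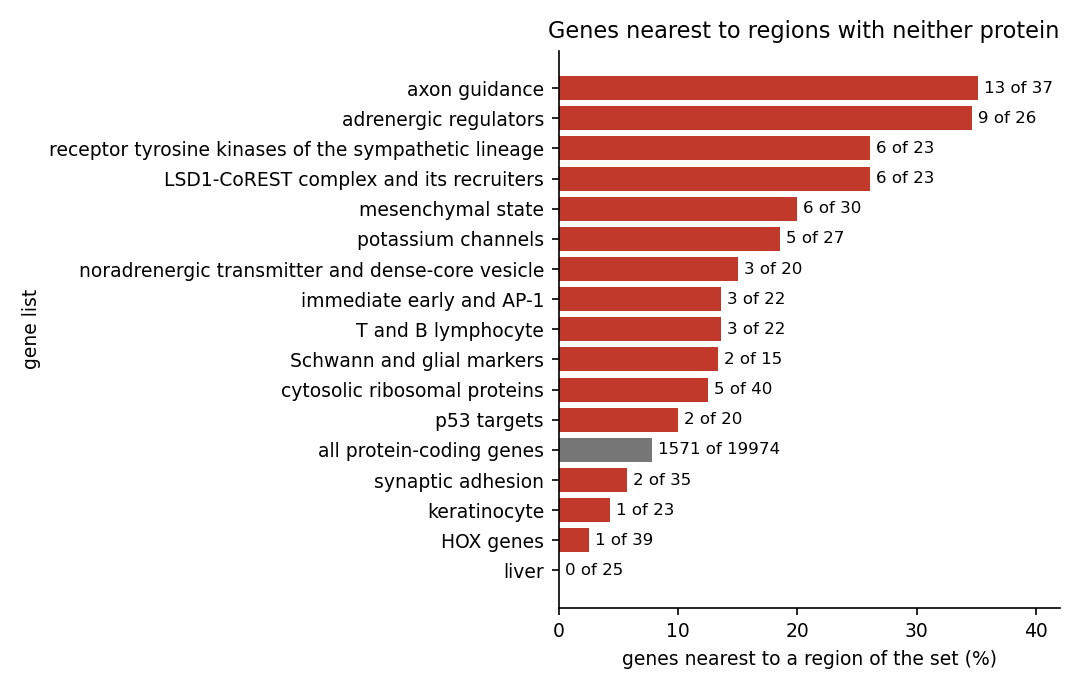
Share of the genes of each list (horizontal, %) that were the nearest protein-coding gene, within 100 kb, of at least 1 region lacking both RCOR2 and LSD1, with the counts beside the bars and all protein-coding genes in grey. Axon guidance genes (13 of 37) and adrenergic regulators (9 of 26) are at the top, and liver genes (0 of 25) at the bottom.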

How the data were processed

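The deposited files are peak lists of 10 libraries, 1 per library, and region lists without values. The submitters' processing notes list BWA 0.7.17 (an aligner), MACS2 (a peak caller) and deepTools. The fold enrichment per peak is the ratio deposited by the authors, and the −log10 q-value is the one the authors' peak caller gave. The largest q-value per list was 0.0457 to 0.0499. The control library, duplicate handling and filters were not given in the sources used here. Read depth is unknown, and the lists hold 10253 to 75643 peaks. The labels do not say that replicates are separate cultures, so the p-values compare libraries that may be technical replicates. Replicates are numbered by the labels, from which some peak names inside the lists differ.

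Overlaps were taken on chromosomes 1 to 22 and X, with an overlap of at least 1 bp. Genes, transcript-start windows and miRNA hairpins are from RefSeq (GRCh38.p14), matched by position, and list genes by symbol (1 keratinocyte symbol was not found). Shares have Wilson intervals, and differences of shares Newcombe intervals, at 95%. Libraries were compared with exact permutation tests in Python 3.11.15 (pandas 2.3.3, NumPy 2.4.6, SciPy 1.17.1), and the overlap code was tested on simulated regions. The regions, gene lists and comparisons were chosen with earlier results of these data known. The rule for named items took the 10 strongest regions by RCOR1, the 10 strongest by RCOR1 and RCOR3, the 5 largest clusters, the 10 genes with the most regions, all adrenergic and LSD1-CoREST genes with a region, and up to 4 genes of each other list. Not every one is printed, and some genes the rule takes are not reported here. The motif search in RefSeq windows was added after the data were seen, since the sequence of the other regions was not used here. No column of per-sample values was left out. Numbers of the replicates were not taken to pair samples of different antibodies. Over the 2816 regions, the difference between RCOR3 replicates and that between uninduced FLAG replicates had r = 0.0103. Uninduced FLAG peaks lay at only 27 of these regions, so this value cannot show whether the numbers pair the samples.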

Additional observations from a re-analysis of the deposited data

How the results depend on the processing

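The RCOR3 differences between classes and the RCOR1 rank difference kept their direction when distal meant beyond 1 or 5 kb, when an overlap had to cover 50% of a region or peak, with no RCOR2 or LSD1 peak within 1 kb, with regions set to 500 bp, with peaks above the median fold, with the 10253 strongest peaks of each library and without 2 Mb either side of MYCN. The exceptions were the RCOR3 differences with only the regions that had both RCOR1 peaks, which were 12.8 points against LSD1-only and 23.5 points against RCOR2-only regions, where those classes were not held to the same peaks. The uninduced FLAG differences also kept their direction, which the choice of regions by the same antibody makes no sign of stability. With the same 244 regions the RCOR1 rank difference shrank to −0.973 points and RCOR3 minus uninduced FLAG grew to 42.4 points, and with equal numbers of peaks the uninduced FLAG difference was −12.8 points and the rank difference −8.74. With 2 libraries a group no p can pass 0.05, so stability refers to direction only. With the replicate block, the difference between RCOR3 and uninduced FLAG was 10.3 points, a description with no test.

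Without each replicate in turn, the RCOR3 difference to LSD1-only regions was −24.9 to −15.6 points and that to RCOR2-only regions −12.2 to −8.88. RCOR3 minus uninduced FLAG was 9.82 to 11.8 points, the uninduced FLAG difference −6.80 to −4.15 and the RCOR1 rank difference −23.9 to −8.99. Without RCOR1 replicate 1, 285 of the regions had an RCOR1 peak, and without single RCOR2 or LSD1 libraries the rule took 3549 to 4004 regions. The number of regions was 7753 with peaks above the median fold and 9842 with equal numbers of peaks, since fewer RCOR2 and LSD1 peaks remove fewer regions. With the nearest gene within 50 kb, 1362 genes had a region, and 1016 held one in their body. A missing peak can be a weak signal, and peak lists alone cannot show which.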

Other observations

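The RCOR2-low list took up only some of the RCOR1 sites that met the other terms of the rule. Of the 49250 peaks of RCOR1 replicate 1, 11255 (22.9%) were distal and free of RCOR2 and LSD1 peaks, and 2779 of these (24.7%) overlapped the list. Listed peaks had a median fold of 4.70 and the 8476 unlisted ones 4.03. RCOR3 was present at 10.9% and 10.4% of the listed peaks and at 2.69% and 4.73% of the unlisted ones, and RCOR1 replicate 2 at 8.82% and 3.33%. The listed share was 16.5%, 23.2%, 38.3% and 71.2% from the weakest to the strongest bin (25% each) of RCOR1 replicate 1 peaks. None of the 11255 peaks lay in the RCOR2-high list.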
